A study of Homo sapiens with 8 samples.

Results

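The autophagy core machinery was taken as 38 listed genes, from the kinase complex that starts autophagy to the receptors that bring cargo to it. A member was any listed gene with a row in the deposited expression table, and 37 of the 38 had a row among 14526 genes in all. MAP1LC3A had none in the table used here. RNA-seq was carried out on cells grown in DMEM with serum and given as HepG2, an established human liver cancer line, a label that the markers below go against. There were 4 control libraries and 4 libraries from cells given 10 mM sodium benzoate (SB), a salt used as a food preservative, for 24 hours. The question was which transcripts differ after SB. The samples were described as biological replicates with no word on separate cultures, so p-values measure the spread between these samples.

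Autophagy encloses portions of cytoplasm in a membrane and delivers them to the lysosome for breakdown. Nutrient and energy shortage start it through the ULK1 kinase complex and a lipid kinase complex around PIK3C3, after which ubiquitin-like conjugation couples ATG8 family proteins to the growing membrane. In liver cells it is known for supplying amino acids and fuel during fasting and for clearing damaged organelles.

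Levels are given as RPKM, reads per kilobase of gene scaled to library depth, a scale on which genes of different length can be compared. The libraries held 36990091 to 44878446 reads in the genes of the table, worked out from the steps of the RPKM values. The member with the fewest reads in any library was WIPI1, with 171. Control 1 stood apart from the other controls. Over the 37 members its median absolute distance from the mean of the other controls was 0.160 on the log2(RPKM + 1) scale, against 0.0585 to 0.0684 for controls 2 to 4 and 0.0210 to 0.0497 for the SB-treated libraries. It lay above the other 3 controls for 17 members, below them for 16 and among them for 4. Fold changes of members and of related genes named below are therefore given with and without it.

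The markers go against the HepG2 label. Of 20 listed hepatocyte and HepG2 markers, 18 had no row in the table used here, among them ALB, AFP, APOA1, SERPINA1, TTR and HNF4A, which HepG2 cells are known to express. Genes in the table had passed the threshold on counts that the authors applied. TF, the transferrin gene, had a row at a low level, 0.210, 0.191, 0.201 and 0.167 RPKM in controls 1 to 4 and 0.485, 0.378, 0.339 and 0.316 RPKM in SB-treated libraries 1 to 4. It was higher in all 4 SB-treated libraries. However, TF passed the authors' threshold only through SB-treated libraries, a filter that favours a rise, so no test of it is given. What the cells were was not tested. Among markers of other cell types, 3 mesenchymal genes with a row summed to 6.13, 8.25, 8.11 and 8.32 RPKM in controls 1 to 4 and to 6.29, 6.18, 6.07 and 6.27 RPKM in SB-treated libraries 1 to 4. Control 1 was thus close to the SB-treated libraries. Their most abundant gene was the collagen gene COL1A1, at 4.86 RPKM in controls and 4.10 RPKM after SB, which was not called and whose groups overlapped. The collagen gene COL3A1 fell, with a log2 fold change of -0.48 (limma adjusted p = 3.35e-05), all 4 SB-treated libraries being below the controls. LUM, a matrix proteoglycan gene, was at 0.347 RPKM in controls and 0.610 RPKM after SB. Like TF, it passed the authors' threshold only through SB-treated libraries, so no test of it is given. The endothelial receptor gene KDR was at 0.314 RPKM in controls and 0.145 RPKM after SB. Their part in the results was not tested.

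After SB, 13 of the 37 members rose and 16 fell, while 8 did not pass the test. A gene was called when its limma p, adjusted over all 14526 genes, was below 0.05. Fold changes are differences of log2(RPKM + 1), SB-treated minus control, which understate changes of genes at low levels. Of all genes 33.0% rose and 32.6% fell. The members' shares were 35.1% and 43.2%, so the share that rose was near that of all genes, and the difference in the share that fell was not tested. The median log2 fold change of the members was -0.09, beside 0.00 for all genes, and the median absolute log2 fold change was 0.22, beside 0.20.

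Without control 1, 14 members rose and 17 fell, and the 29 members called with all libraries were called in the same direction again. The median of the members was then -0.06. More genes were called over the whole table as well, 5459 higher and 5511 lower without control 1, against 4787 and 4740 with all libraries. The balance of directions rested on the scaling. The TMM factors are not in the table and were inferred here from the steps of the RPKM values, as the ratio of the library size behind the RPKM to the reads in the table. When these inferred factors were left out, the median of all genes moved to 0.08, 16 members rose and 5 fell. Of all genes, 6253 then rose and 3357 fell, so that those called higher made up 65.1% of all calls, against 50.2% with the factors.

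In 14 members every SB-treated library lay above every control, and in 13 every SB-treated library lay below every control. Over all genes these shares were 31.0% and 30.5%. For a single gene, groups of 4 that do not overlap give the smallest two-sided p that an exact permutation test can reach, 0.0286. Absolute log2 fold changes of 0.25 or more were called upward in 6 members and downward in 6, beside 19.6% and 20.8% of all genes. AMBRA1, ATG9A and ATG10, given below as 0.25, are just under it at 0.248, 0.247 and 0.245. As the RNA came from bulk cultures, a large change in some cells and a small change in all cells cannot be told apart.

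**Figure D1:**
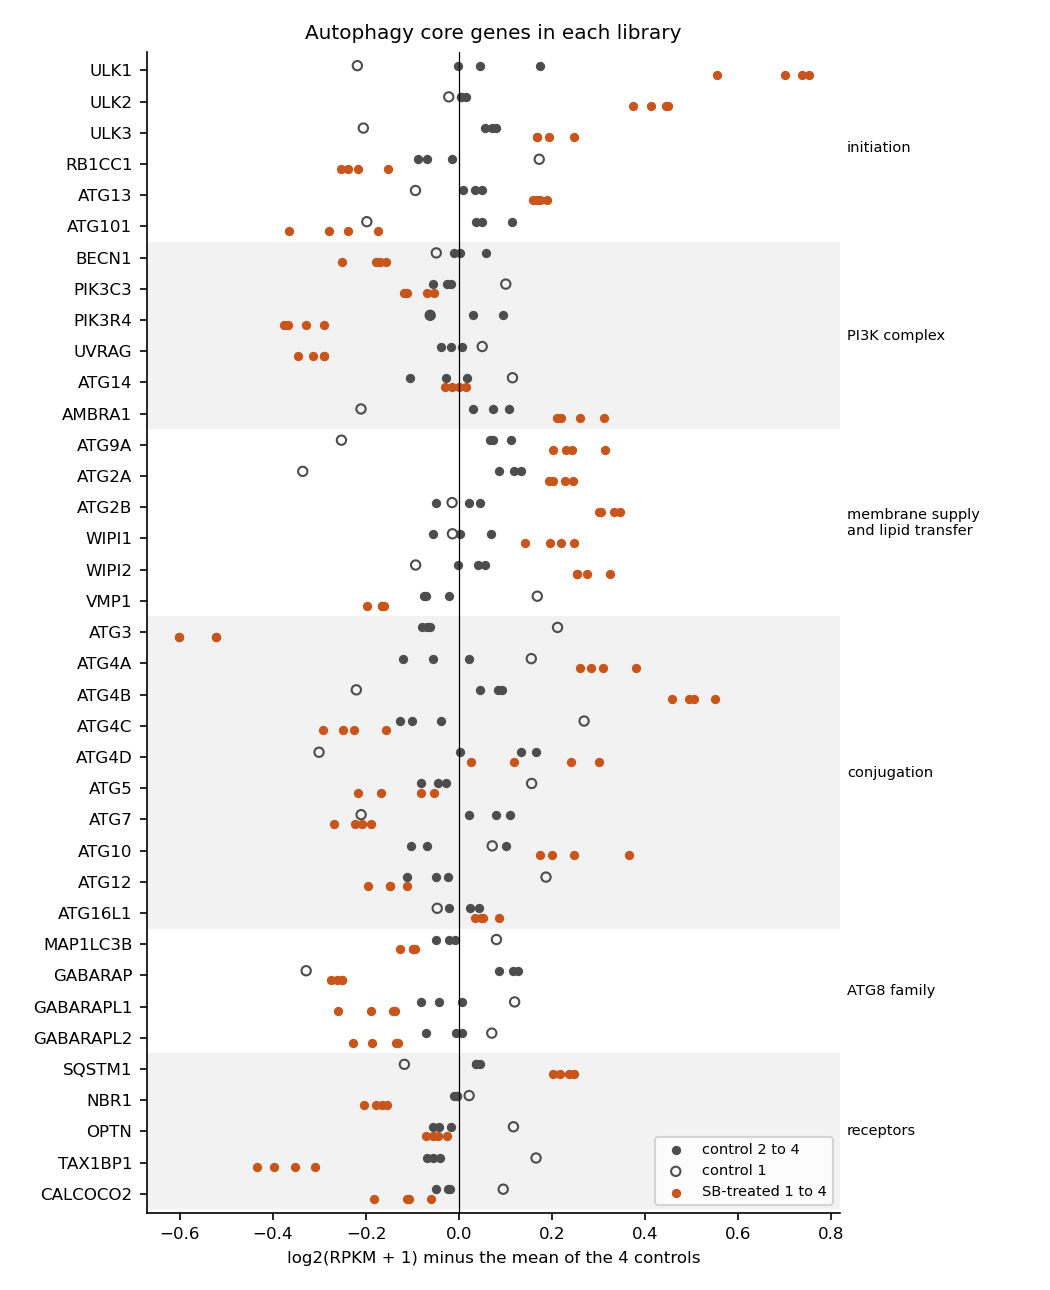
Each row is a member, grouped by role, and each point a library, plotted as log2(RPKM + 1) minus the mean of the 4 controls. Grey points are controls 2 to 4, open circles control 1 and orange points the 4 SB-treated libraries. For ULK1 the SB-treated libraries lie right of all controls, while for GABARAP control 1 lies left of the SB-treated libraries and the other 3 controls right of them.

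**Figure D2:**
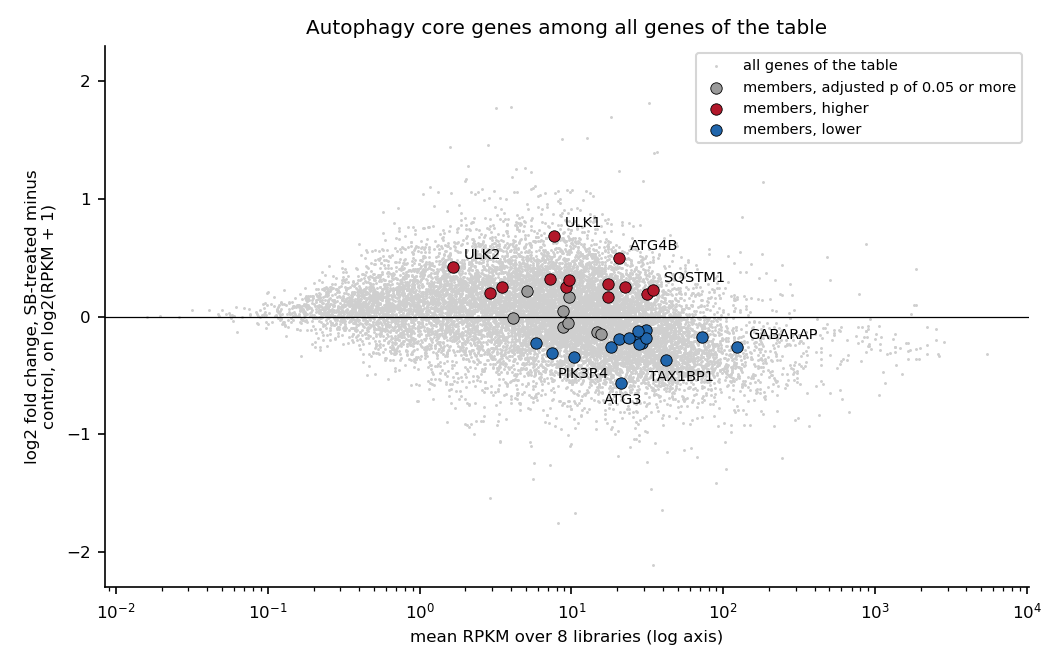
Mean RPKM over the 8 libraries (log axis) against log2 fold change for all genes of the table (small grey points) and the 37 members (large points, red where called higher, blue where called lower). The members run from -0.56 for ATG3 to 0.69 for ULK1, within the range of all genes.

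The initiation complex was split, with the 3 kinases and ATG13 higher and the scaffold RB1CC1 and the subunit ATG101 lower. ULK1, the kinase that starts autophagosome formation (chr12:131894622-131923150 in hg38), was at 4.72, 5.87, 6.51 and 5.65 RPKM in controls 1 to 4 and 8.77, 10.2, 10.1 and 9.82 RPKM in SB-treated libraries 1 to 4. All 4 SB-treated libraries were above all 4 controls, and control 1 was the lowest of the controls. Means were 5.68 ± 0.741 RPKM in controls and 9.72 ± 0.653 RPKM after SB (SD, n = 4), a log2 fold change of 0.69 (95% confidence interval 0.51 to 0.86, limma adjusted p = 5.12e-05). It was 0.61 without control 1, and ULK1 was the member that rose most.

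ULK2, a kinase closely related to ULK1, was the least abundant member. It was at 1.25, 1.31, 1.29 and 1.29 RPKM in controls 1 to 4 and 2.11, 2.12, 1.96 and 2.04 RPKM in SB-treated libraries 1 to 4. The controls lay close together, control 1 included, and every SB-treated library was above them. Means were 1.28 ± 0.0251 RPKM in controls and 2.06 ± 0.0724 RPKM after SB (SD, n = 4), a log2 fold change of 0.42 (95% confidence interval 0.35 to 0.49, limma adjusted p = 4.29e-06). The fold change of ULK2 was 0.41 without control 1. Since its level is low, the value with all libraries depends on the constant added before the logarithm and was 0.64 with 0.1 in place of 1. On the RPKM scale the ratio of means was 1.60 for ULK2 and 1.71 for ULK1.

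ULK3, a kinase related to ULK1, had the highest mean of the initiation group over all 8 libraries, although RB1CC1 was higher in the controls. It was at 25.1, 30.3, 30.8 and 30.6 RPKM in controls 1 to 4 and 32.8, 34.7, 33.4 and 32.8 RPKM in SB-treated libraries 1 to 4. The groups did not overlap, but controls 2 to 4 lay close under the SB-treated libraries and control 1 far below. Its log2 fold change was 0.19 (95% confidence interval 0.05 to 0.33, limma adjusted p = 0.0227), with 0.12 left without control 1, and the call was lost without SB-treated 2. ATG13, the subunit that joins the kinase to its partners, rose with a log2 fold change of 0.17 (limma adjusted p = 0.00335) and 0.14 without control 1, all 4 SB-treated libraries being above the controls.

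ATG101, which stabilises ATG13, was at 17.2, 21.6, 20.6 and 20.4 RPKM in controls 1 to 4 and 15.2, 17.5, 16.2 and 16.7 RPKM in SB-treated libraries 1 to 4. Controls 2 to 4 were above all SB-treated libraries, whereas control 1 lay below SB-treated 2. ATG101 had a log2 fold change of -0.26 (95% confidence interval -0.42 to -0.11, limma adjusted p = 0.00747) and -0.33 without control 1. RB1CC1, the large scaffold also called FIP200, averaged 31.3 ± 2.74 RPKM in controls and 26.7 ± 0.884 RPKM after SB (SD, n = 4). Its groups did not overlap, with a log2 fold change of -0.22 (limma adjusted p = 0.00817) and -0.16 without control 1. Without TMM factors ATG101 and RB1CC1 were no longer called, at -0.16 and -0.12, while the 4 genes that rose in this group were called again, ULK3 at 0.29 and ATG13 at 0.27.

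**Figure D3:**
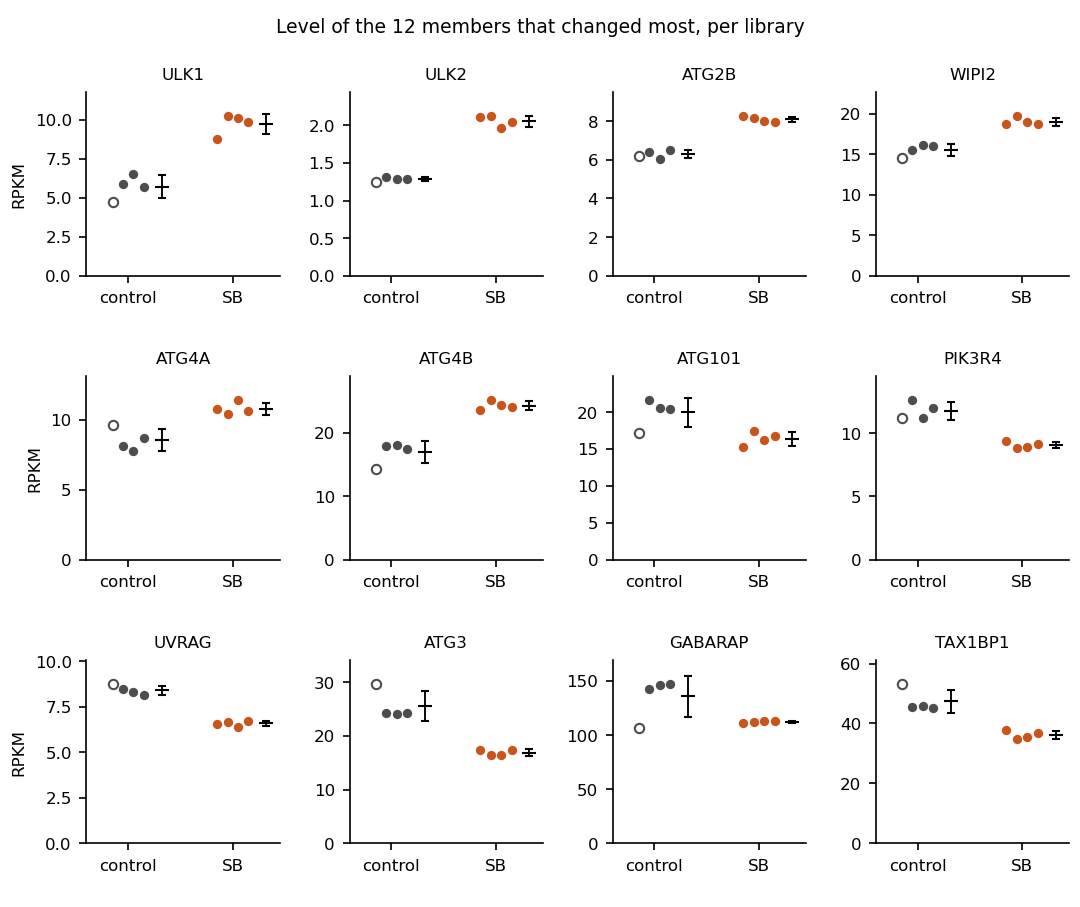
RPKM in each library for the 12 members called at an absolute log2 fold change of 0.25 or more, controls in grey with control 1 as an open circle and SB-treated libraries in orange. Bars give the mean and SD of the 4 libraries. ULK1, ULK2, ATG2B, WIPI2, ATG4A and ATG4B are higher after SB, and in GABARAP and ATG101 control 1 reaches the SB-treated libraries.

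Among the genes of the lipid kinase complex, which makes phosphatidylinositol 3-phosphate on the forming membrane, 3 fell, 1 rose and 2 were not called. BECN1, the scaffold on which the complex assembles, had the highest level of the group. It was at 21.2, 22.0, 22.9 and 21.8 RPKM in controls 1 to 4 and 18.3, 19.3, 19.4 and 19.6 RPKM in SB-treated libraries 1 to 4. No SB-treated library reached a control, and control 1 was close to the other controls. This gave BECN1 a log2 fold change of -0.19 (95% confidence interval -0.28 to -0.11, limma adjusted p = 0.00148), -0.21 without control 1. It was -0.09 and not called without TMM factors.

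PIK3R4, the regulatory subunit also called VPS15 that anchors the kinase, was at 11.2, 12.6, 11.2 and 12.0 RPKM in controls 1 to 4 and 9.41, 8.82, 8.87 and 9.14 RPKM in SB-treated libraries 1 to 4. The lowest control was above the highest SB-treated library. Means were 11.7 ± 0.686 RPKM in controls and 9.06 ± 0.272 RPKM after SB (SD, n = 4), a log2 fold change of -0.34 (95% confidence interval -0.44 to -0.24, limma adjusted p = 1.15e-04) and -0.36 without control 1. UVRAG, which directs the complex to later endosomal and lysosomal steps, was at 8.74, 8.45, 8.30 and 8.16 RPKM in controls 1 to 4 and 6.57, 6.69, 6.40 and 6.70 RPKM in SB-treated libraries 1 to 4. The groups were again separate, and the spread within each was small. The log2 fold change of UVRAG was -0.31 (95% confidence interval -0.39 to -0.23, limma adjusted p = 3.72e-05), -0.29 without control 1.

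ATG14, the subunit that brings the complex to the site of autophagosome formation in place of UVRAG, averaged 4.11 ± 0.328 RPKM in controls and 4.08 ± 0.0670 RPKM after SB (SD, n = 4). Its groups overlapped and its log2 fold change was -0.01 (95% confidence interval -0.11 to 0.10, limma adjusted p = 0.899), turning to 0.03 without control 1 and 0.08 without TMM factors. PIK3C3, the catalytic subunit, averaged 9.13 ± 0.493 RPKM in controls and 8.52 ± 0.212 RPKM after SB (SD, n = 4) with a log2 fold change of -0.09 (95% confidence interval -0.18 to 0.00, limma adjusted p = 0.0835) and -0.06 without control 1. AMBRA1, which promotes the activity of the BECN1 complex, rose, its means being 8.38 ± 0.897 RPKM in controls and 10.1 ± 0.333 RPKM after SB (SD, n = 4). The log2 fold change was 0.25 (limma adjusted p = 0.00812) and 0.18 without control 1, with all 4 SB-treated libraries above the controls.

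Promoter sequence is shown for 4 members whose upstream window holds no annotated exon: ULK1 and ULK2, which rose, PIK3R4, which fell, and ATG14, which was not called. Each line gives the 250 bases before the start site from RefSeq, build GRCh38.p14, 5′ to 3′ on the strand of the gene. The windows are chr12:131894372-131894621 on the plus strand for ULK1, and on the minus strand chr17:19867937-19868186 for ULK2, chr3:130746830-130747079 for PIK3R4 and chr14:55411831-55412080 for ATG14. All 4 lie directly upstream of the gene. Capitals mark CACGTG, the E-box that TFEB and TFE3 can bind.
ULK1: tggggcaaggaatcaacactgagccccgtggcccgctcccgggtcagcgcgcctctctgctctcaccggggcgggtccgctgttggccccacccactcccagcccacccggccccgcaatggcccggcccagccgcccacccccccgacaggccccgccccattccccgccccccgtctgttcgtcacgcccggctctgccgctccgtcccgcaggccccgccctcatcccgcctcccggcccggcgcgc
ULK2: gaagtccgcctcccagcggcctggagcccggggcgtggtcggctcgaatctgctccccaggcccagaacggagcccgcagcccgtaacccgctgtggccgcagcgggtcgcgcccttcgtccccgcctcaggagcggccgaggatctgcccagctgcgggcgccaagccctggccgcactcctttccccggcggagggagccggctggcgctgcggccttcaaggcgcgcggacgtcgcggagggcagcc
PIK3R4: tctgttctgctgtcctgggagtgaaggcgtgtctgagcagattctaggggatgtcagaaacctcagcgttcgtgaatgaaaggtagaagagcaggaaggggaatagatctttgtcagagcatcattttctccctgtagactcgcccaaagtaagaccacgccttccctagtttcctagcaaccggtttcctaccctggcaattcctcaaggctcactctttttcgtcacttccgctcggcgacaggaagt
ATG14: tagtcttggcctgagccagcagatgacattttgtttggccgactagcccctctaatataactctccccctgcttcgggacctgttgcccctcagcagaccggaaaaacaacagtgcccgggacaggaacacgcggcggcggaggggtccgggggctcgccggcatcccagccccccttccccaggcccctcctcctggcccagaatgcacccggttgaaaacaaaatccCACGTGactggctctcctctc

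RefSeq promoters were found for 34 of the 38 listed genes. CACGTG, which reads the same on both strands, was in the window of 3 of them, namely ULK3, ATG14 and ATG3, beside 6.34% of all 35116 promoters of the same length and 8.12% of promoters of genes in the table. GTAAACA, a sequence that FOXO factors can bind, was searched on both strands. It was in the window of CALCOCO2 and of no other member, beside 2.98% of all promoters and 2.20% of those of genes in the table. Members were counted as genes, with a match in any of their promoter entries, while the percentages count single promoter entries. ULK3 rose, ATG3 and CALCOCO2 fell and ATG14 was not called. A match describes letters in the window, and no match says nothing of binding elsewhere. The share of G and C was 78.0% for ULK1, 76.0% for ULK2, 50.8% for PIK3R4 and 62% for ATG14, with a median of 62.2% over the 42 promoter entries of the members.

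In the group that supplies membrane and lipid, 4 genes rose, 1 fell and 1 was not called. ATG2B, which transfers lipid from the endoplasmic reticulum to the growing membrane, was at 6.20, 6.38, 6.03 and 6.50 RPKM in controls 1 to 4 and 8.24, 8.17, 7.99 and 7.96 RPKM in SB-treated libraries 1 to 4. Every SB-treated library was above every control, and control 1 lay among the other controls. Means were 6.28 ± 0.205 RPKM in controls and 8.09 ± 0.138 RPKM after SB (SD, n = 4), a log2 fold change of 0.32 (95% confidence interval 0.25 to 0.40, limma adjusted p = 2.86e-05), and it was 0.32 without control 1. ATG2A, which has the same role, averaged 4.64 ± 0.814 RPKM in controls and 5.50 ± 0.110 RPKM after SB (SD, n = 4). Its SB-treated libraries were also above the controls, with control 1 far below the rest, at a log2 fold change of 0.22 (95% confidence interval 0.01 to 0.43, limma adjusted p = 0.0668). Without control 1 that value was 0.10 and passed the test. ATG2A was also called without control 2, with a replicate block, with that block and voom on recovered reads, and, at 0.30, without TMM factors.

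WIPI2, which reads phosphatidylinositol 3-phosphate and recruits ATG16L1, was at 14.5, 15.5, 16.2 and 16.0 RPKM in controls 1 to 4 and 18.7, 19.7, 19.0 and 18.7 RPKM in SB-treated libraries 1 to 4. The groups were separate, with control 1 lowest. In limma WIPI2 had a log2 fold change of 0.28 (95% confidence interval 0.19 to 0.37, limma adjusted p = 2.43e-04) and 0.25 without control 1. WIPI1, a related lipid-binding protein, had the lowest level of the group, 2.63 ± 0.129 RPKM in controls and 3.17 ± 0.128 RPKM after SB (SD, n = 4), and a log2 fold change of 0.20 (limma adjusted p = 0.00143), 0.20 without control 1, with no overlap.

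ATG9A, the membrane protein carried on vesicles that seed the autophagosome, averaged 20.7 ± 2.42 RPKM in controls and 24.6 ± 0.835 RPKM after SB (SD, n = 4). ATG9A had a log2 fold change of 0.25 (limma adjusted p = 0.0166), and 0.16 without control 1, which was its lowest library. VMP1, an endoplasmic reticulum protein that moves lipid between membrane leaflets, was the most abundant of the group and the member of it that fell. It was at 32.4, 28.3, 27.3 and 27.2 RPKM in controls 1 to 4 and 25.5, 24.9, 25.5 and 25.6 RPKM in SB-treated libraries 1 to 4. The groups did not overlap, and control 1 was the highest library. For VMP1 the log2 fold change was -0.17 (95% confidence interval -0.29 to -0.05, limma adjusted p = 0.0190), -0.11 without control 1, and -0.07 and not called without TMM factors. ATG9A shares 1833 exonic bases with a gene annotated on its own strand, so its level is uncertain to that extent.

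With all libraries the conjugation genes showed the widest range of changes, with 3 higher, 3 lower and 4 not called. Without control 1 the initiation genes ranged more widely, from -0.33 to 0.61, against -0.49 to 0.42 for the conjugation genes. ATG3, the E2-like enzyme that passes ATG8 proteins to phosphatidylethanolamine (chr3:112532510-112562046), was at 29.6, 24.2, 24.0 and 24.3 RPKM in controls 1 to 4 and 17.4, 16.4, 16.4 and 17.4 RPKM in SB-treated libraries 1 to 4. Controls 2 to 4 differed by little, control 1 was higher, and every SB-treated library lay well below all of them. Means were 25.5 ± 2.71 RPKM in controls and 16.9 ± 0.607 RPKM after SB (SD, n = 4), a log2 fold change of -0.56 (95% confidence interval -0.71 to -0.41, limma adjusted p = 5.45e-05). Without control 1 it was -0.49, and ATG3 was the member that fell most in both fits.

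The ATG4 proteases trim ATG8 proteins before conjugation and release them from membranes afterwards. ATG4B, the main protease of the family (chr2:241637213-241673857), was at 14.3, 17.9, 18.0 and 17.4 RPKM in controls 1 to 4 and 23.5, 25.1, 24.3 and 24.1 RPKM in SB-treated libraries 1 to 4. All SB-treated libraries were above all controls, control 1 being the lowest. Means were 16.9 ± 1.77 RPKM in controls and 24.2 ± 0.666 RPKM after SB (SD, n = 4), a log2 fold change of 0.50 (95% confidence interval 0.35 to 0.65, limma adjusted p = 1.44e-04) and 0.42 without control 1. ATG4A, which prefers GABARAP-type proteins, was at 9.61, 8.16, 7.77 and 8.67 RPKM in controls 1 to 4 and 10.8, 10.4, 11.4 and 10.6 RPKM in SB-treated libraries 1 to 4. Here control 1 was the highest control and still below the SB-treated libraries. The log2 fold change of ATG4A was 0.31 (95% confidence interval 0.17 to 0.44, limma adjusted p = 0.00131) and 0.36 without control 1.

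ATG4C was the most abundant conjugation gene and went the other way. It was at 36.5, 27.5, 29.3 and 28.0 RPKM in controls 1 to 4 and 26.9, 24.4, 25.2 and 25.6 RPKM in SB-treated libraries 1 to 4. Control 1 was far above the rest, and controls 2 to 4 were only just above the SB-treated libraries. Its log2 fold change of -0.23 (95% confidence interval -0.41 to -0.05, limma adjusted p = 0.0296) was -0.14 without control 1. The call was lost without SB-treated 2, 3 or 4 and without TMM factors. ATG4D averaged 9.07 ± 1.40 RPKM in controls and 10.3 ± 0.963 RPKM after SB (SD, n = 4), with overlapping groups and a log2 fold change of 0.17 (95% confidence interval -0.06 to 0.40, limma adjusted p = 0.162). It was 0.07 without control 1, and ATG4D was called higher without TMM factors, at 0.27, and with a replicate block.

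ATG7, the E1-like enzyme that activates both ATG8 proteins and ATG12, averaged 6.34 ± 0.706 RPKM in controls and 5.27 ± 0.145 RPKM after SB (SD, n = 4). Its log2 fold change was -0.22 (limma adjusted p = 0.0134), and control 1 lay among the SB-treated libraries, so that it was -0.29 without it. It was -0.13 and not called without TMM factors. ATG10, the E2-like enzyme for ATG12, rose from a low level, with means of 3.11 ± 0.291 RPKM in controls and 3.87 ± 0.291 RPKM after SB (SD, n = 4) and a log2 fold change of 0.25 (limma adjusted p = 0.00509), 0.27 without control 1. Its 4 SB-treated libraries were above the controls.

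ATG12, ATG5 and ATG16L1 form the complex that directs ATG8 proteins to the membrane, and none of them was called in the limma fit described above. ATG12 averaged 16.5 ± 1.63 RPKM in controls and 14.7 ± 0.362 RPKM after SB (SD, n = 4), with a log2 fold change of -0.15 (95% confidence interval -0.28 to -0.01, limma adjusted p = 0.0544). ATG5 averaged 15.6 ± 1.25 RPKM in controls and 14.1 ± 0.766 RPKM after SB (SD, n = 4), with a log2 fold change of -0.13 (95% confidence interval -0.26 to 0.00, limma adjusted p = 0.0734) and -0.08 without control 1. ATG16L1 averaged 8.58 ± 0.275 RPKM in controls and 8.95 ± 0.157 RPKM after SB (SD, n = 4), and its log2 fold change was 0.05 (95% confidence interval -0.02 to 0.13, limma adjusted p = 0.188), 0.04 without control 1. In each of them the groups overlapped. Without control 1 ATG12 was called, at -0.08, as it was without control 4, at -0.18, and with voom on recovered reads. A replicate block gave calls for ATG12 and ATG5, and leaving out TMM factors gave ATG16L1 a call, at 0.15. ATG7 shares 1597 exonic bases with VGLL4 on the opposite strand. The library kit kept strand, but whether counting used it is not given in the sources used here, so the ATG7 level is uncertain.

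**Figure D4:**
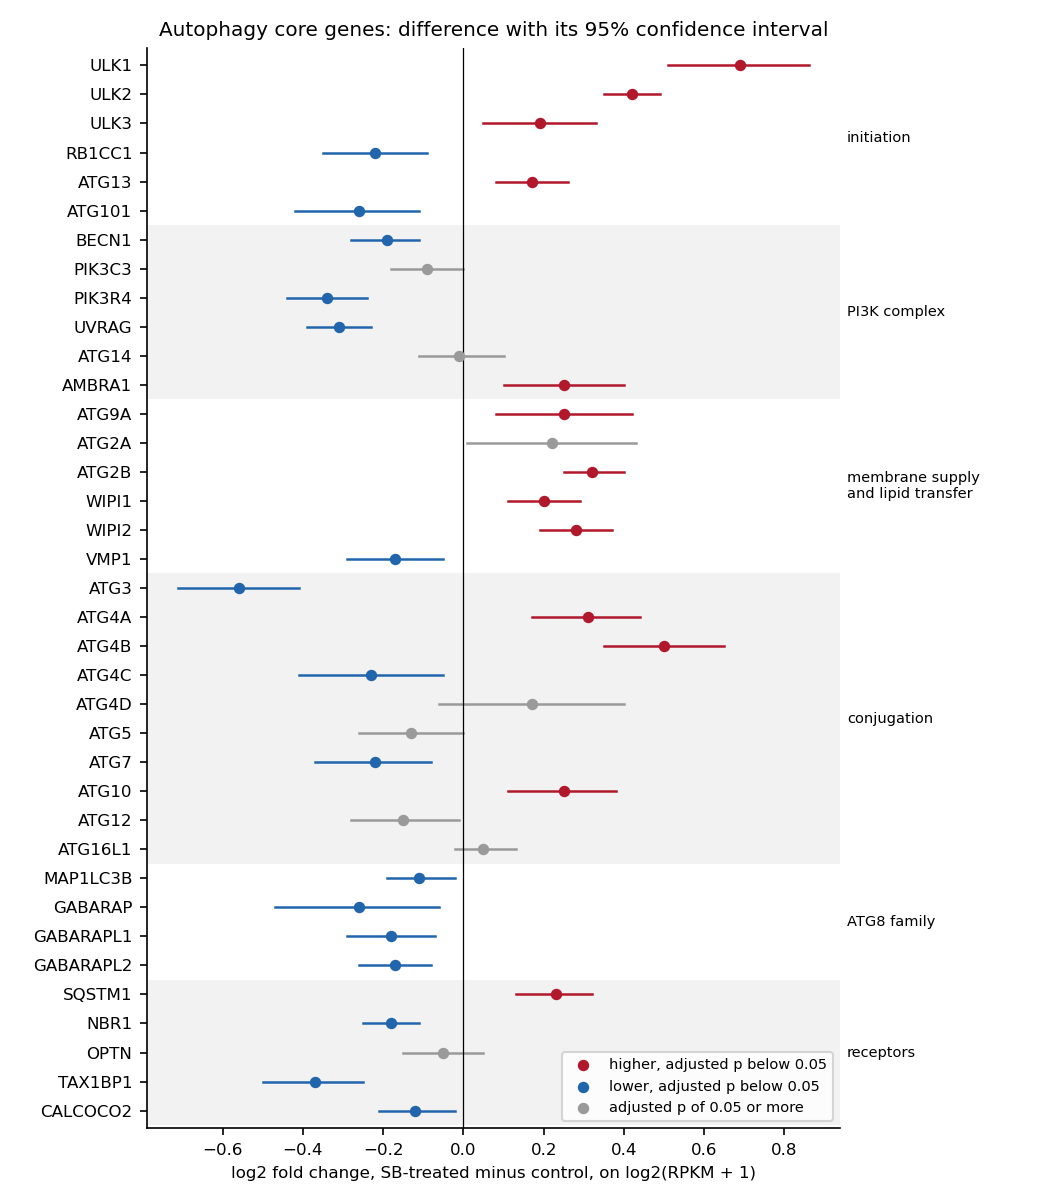
Log2 fold change of each member on the log2(RPKM + 1) scale, with its 95% confidence interval from limma, grouped by role. Red and blue mark members called higher and lower, grey those not called. The 4 ATG8 family genes shown lie left of 0, at -0.26 to -0.11, though none was called without TMM factors, and MAP1LC3C, which is not among the members, rose.

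The 4 ATG8 family members with a row fell, although without TMM factors none of them was called and MAP1LC3B was at 0.00. MAP1LC3C, an ATG8 gene counted among the related genes, rose. These ubiquitin-like proteins are joined to the membrane lipid and hold cargo receptors. GABARAP, the most abundant member of all (chr17:7240008-7242449), was at 107, 143, 146 and 147 RPKM in controls 1 to 4 and 111, 112, 113 and 113 RPKM in SB-treated libraries 1 to 4. Controls 2 to 4 were above every SB-treated library, but control 1 was below them all. Means were 136 ± 19.1 RPKM in controls and 112 ± 1.12 RPKM after SB (SD, n = 4), a log2 fold change of -0.26 (95% confidence interval -0.47 to -0.06, limma adjusted p = 0.0281). Without control 1 it was -0.37, whereas leaving out any other library ended the call.

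GABARAPL2 averaged 77.2 ± 3.11 RPKM in controls and 68.4 ± 2.18 RPKM after SB (SD, n = 4), with a log2 fold change of -0.17 (limma adjusted p = 0.00452) and -0.15 without control 1. GABARAPL1 averaged 32.9 ± 2.09 RPKM in controls and 28.9 ± 1.14 RPKM after SB (SD, n = 4), with a log2 fold change of -0.18 (limma adjusted p = 0.00947) and -0.14 without control 1. MAP1LC3B, the ATG8 protein most used to follow autophagosomes, averaged 32.1 ± 1.31 RPKM in controls and 29.8 ± 0.310 RPKM after SB (SD, n = 4). Its change was the smallest called among the members, -0.11 (limma adjusted p = 0.0287) and -0.08 without control 1. The call for MAP1LC3B was also lost without control 2 or without any SB-treated library. In GABARAPL2, GABARAPL1 and MAP1LC3B no SB-treated library reached the lowest control.

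MAP1LC3C was far lower than these genes, at 3.33, 4.05, 3.55 and 4.74 RPKM in controls 1 to 4 and 5.61, 6.03, 5.71 and 4.67 RPKM in SB-treated libraries 1 to 4. SB-treated 4 was just below control 4, and the other 3 SB-treated libraries were above all controls. The log2 fold change of MAP1LC3C was 0.41 (95% confidence interval 0.20 to 0.62, limma adjusted p = 0.00360), 0.35 without control 1.

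Summed over the 4 members, transcripts of the family stood at 258, 283, 288 and 283 RPKM in controls 1 to 4 and at 238, 235, 243 and 242 RPKM in SB-treated libraries 1 to 4. The sum was lower in every SB-treated library. GABARAP made up 41.6% of the sum in control 1, 50.6%, 50.7% and 51.9% in controls 2 to 4 and 46.5% to 47.8% in the SB-treated libraries. Its share in control 1 was thus below that in all other libraries. GABARAP shares 691 exonic bases with a gene annotated on its own strand. GABARAPL1 and MAP1LC3B have near-identical copies elsewhere in the genome, and how reads that match both were counted is not given in the sources used here, so all 3 levels are uncertain.

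Of the cargo receptors, which bind ubiquitin or other tags on cargo and ATG8 proteins on the membrane, 1 rose, 3 fell and 1 was not called. TAX1BP1, a receptor for protein aggregates and ubiquitin-coated bacteria (chr7:27739331-27844564), was at 53.1, 45.4, 45.9 and 45.0 RPKM in controls 1 to 4 and 37.9, 34.7, 35.6 and 36.8 RPKM in SB-treated libraries 1 to 4. Every SB-treated library was below every control, and control 1 was the highest. Means were 47.3 ± 3.88 RPKM in controls and 36.2 ± 1.42 RPKM after SB (SD, n = 4), a log2 fold change of -0.37 (95% confidence interval -0.50 to -0.25, limma adjusted p = 3.06e-04) and -0.32 without control 1. NBR1, a receptor for aggregates and peroxisomes, varied little within groups, with means of 25.6 ± 0.268 RPKM in controls and 22.5 ± 0.337 RPKM after SB (SD, n = 4) and a log2 fold change of -0.18 (limma adjusted p = 6.35e-04) and -0.17 without control 1, all 4 SB-treated libraries being lower. Without TMM factors NBR1 was at -0.08 and still called.

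SQSTM1, also called p62, is the best known receptor and was the member of its group that rose. It averaged 31.8 ± 1.75 RPKM in controls and 37.3 ± 0.505 RPKM after SB (SD, n = 4), with a log2 fold change of 0.23 (95% confidence interval 0.13 to 0.32, limma adjusted p = 0.00124) and 0.19 without control 1. Its groups did not overlap. CALCOCO2, also called NDP52, averaged 28.4 ± 1.36 RPKM in controls and 26.2 ± 0.945 RPKM after SB (SD, n = 4). CALCOCO2 had a log2 fold change of -0.12 (limma adjusted p = 0.0399) and -0.08 without control 1. The call for CALCOCO2 was lost with 0.1 added in place of 1, without TMM factors, and without control 2, control 3 or SB-treated 2, 3 or 4. OPTN, a receptor in the clearance of mitochondria, averaged 9.62 ± 0.608 RPKM in controls and 9.24 ± 0.139 RPKM after SB (SD, n = 4), with overlapping groups and a log2 fold change of -0.05 (95% confidence interval -0.15 to 0.05, limma adjusted p = 0.328), -0.01 without control 1.

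The receptors together summed to 149, 141, 141 and 140 RPKM in controls 1 to 4 and to 134, 128, 131 and 132 RPKM in SB-treated libraries 1 to 4. Within that sum the share of SQSTM1 was 19.5% to 23.3% in the controls and 27.4% to 29.3% after SB. The share of TAX1BP1 was 32.2% to 35.6% in the controls and 27.0% to 28.3% after SB. TAX1BP1 was thus the most abundant receptor transcript in every control, and in SB-treated libraries 2 to 4 SQSTM1 took that place. SQSTM1 shares 1582 exonic bases with MRNIP and TAX1BP1 shares 415 with JAZF1, both on the opposite strand, and these levels are uncertain for the reason given for ATG7. The same holds for ATG14 (1047 bases), WIPI1 (829), BECN1 (795), ATG101 (614) and NBR1 (463), and for 11 members with overlaps of 60 to 374 bases.

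Around the core machinery, 75 related genes of autophagy and its control were listed and 74 had a row. Of these 25 rose and 22 fell, shares of 33.8% and 29.7% that lie near those of all genes. Without control 1, 30 rose and 28 fell, beside 5459 and 5511 of all 14526 genes. Without TMM factors 33 rose and 15 fell, beside 6253 and 3357 of all genes. With all libraries and TMM factors the median log2 fold change of the related genes was -0.01. Of 11 further core genes and paralogs, 7 rose and 1 fell, the latter being WDR45B at -0.15 (limma adjusted p = 0.00814), -0.12 without control 1, a relative of the WIPI proteins. WDR45B was at -0.05 and not called without TMM factors. WDR45, also a relative of the WIPI proteins, was at 16.2, 19.6, 19.6 and 19.5 RPKM in controls 1 to 4 and 27.8, 27.6, 27.9 and 27.4 RPKM in SB-treated libraries 1 to 4. No SB-treated library came near a control. The log2 fold change of WDR45 was 0.54 (95% confidence interval 0.41 to 0.67, limma adjusted p = 3.15e-05) and 0.48 without control 1.

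WDFY3, a large scaffold for the removal of aggregates, was at 5.76, 6.10, 5.52 and 6.17 RPKM in controls 1 to 4 and 9.07, 8.71, 8.66 and 8.69 RPKM in SB-treated libraries 1 to 4. The groups did not overlap and the log2 fold change was 0.51 (95% confidence interval 0.42 to 0.60, limma adjusted p = 4.93e-06), with 0.50 without control 1. RUBCN, found in the table under its older symbol KIAA0226, is an inhibitor of the UVRAG form of the lipid kinase complex. It averaged 2.78 RPKM in controls and 4.18 RPKM after SB, with a log2 fold change of 0.46 (limma adjusted p = 2.75e-04) and 0.38 without control 1, and all 4 SB-treated libraries were higher.

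Among 19 genes of the MTORC1 and AMPK pathways, which restrain and promote initiation, 6 rose and 9 fell. DDIT4, a stress-induced inhibitor of MTORC1, was the most abundant of them and was at 374, 414, 414 and 400 RPKM in controls 1 to 4 and 214, 224, 222 and 219 RPKM in SB-treated libraries 1 to 4. Every SB-treated library was well under every control. For DDIT4 the log2 fold change was -0.86 (95% confidence interval -0.95 to -0.77, limma adjusted p = 4.26e-07) and -0.89 without control 1. DEPTOR, an inhibitory subunit of the MTOR complexes, was at 6.12, 5.64, 6.15 and 6.36 RPKM in controls 1 to 4 and 3.31, 3.15, 2.99 and 2.93 RPKM in SB-treated libraries 1 to 4, again without overlap. Its log2 fold change was -0.79 (95% confidence interval -0.89 to -0.69, limma adjusted p = 9.27e-07) and -0.78 without control 1.

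TSC2, which with TSC1 switches off the MTORC1 activator RHEB, was at 18.5, 26.0, 24.5 and 25.1 RPKM in controls 1 to 4 and 35.3, 39.1, 36.3 and 36.7 RPKM in SB-treated libraries 1 to 4. The groups were separate and control 1 was lowest by far. In limma TSC2 had a log2 fold change of 0.64 (95% confidence interval 0.43 to 0.84, limma adjusted p = 2.35e-04) and 0.53 without control 1. The kinase gene MTOR itself averaged 22.9 RPKM in controls and 24.6 RPKM after SB, with a log2 fold change of 0.10 (95% confidence interval -0.02 to 0.23, limma adjusted p = 0.135). It was 0.05 without control 1, and 0.20 and called without TMM factors. RPTOR, its partner in MTORC1, had a log2 fold change of -0.03 (95% confidence interval -0.24 to 0.18, limma adjusted p = 0.779). PRKAA1, a catalytic subunit of AMPK, had a log2 fold change of -0.16 (95% confidence interval -0.34 to 0.03, limma adjusted p = 0.121), -0.06 without control 1, and was called with voom on recovered reads and a replicate block. In these 3 genes the groups overlapped, and RPTOR was at -0.14 and called without control 1, which was its lowest library.

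**Figure D5:**
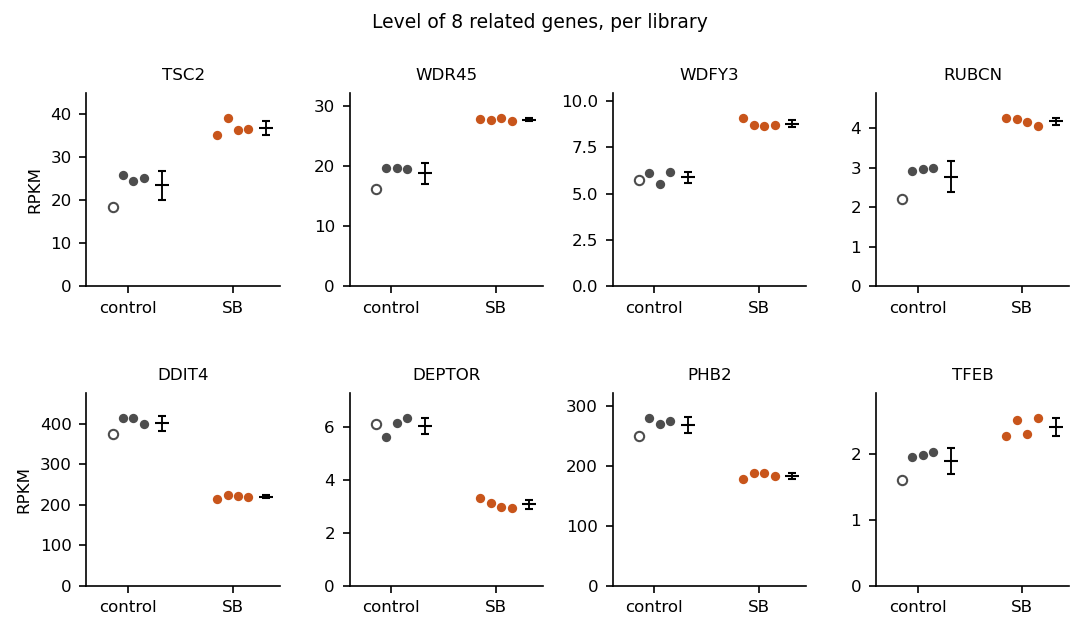
RPKM in each library for 8 related genes, controls in grey with control 1 as an open circle and SB-treated libraries in orange, with the mean and SD of each 4. DDIT4 falls from a mean of 401 to 220 RPKM and TSC2 rises from 23.5 to 36.8 RPKM, with no overlap in any of the 8 genes.

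Of 17 further receptors and mitophagy genes, 7 fell. PHB2, a prohibitin of the inner mitochondrial membrane that also serves as a mitophagy receptor, was at 251, 281, 270 and 276 RPKM in controls 1 to 4 and 178, 188, 189 and 183 RPKM in SB-treated libraries 1 to 4. All SB-treated libraries were below the controls, with a log2 fold change of -0.54 (95% confidence interval -0.64 to -0.45, limma adjusted p = 5.16e-06) and -0.58 without control 1. RETREG1, a receptor for the endoplasmic reticulum, rose, at 0.38 (limma adjusted p = 5.29e-04) and 0.43 without control 1, as did TOLLIP at 0.21 (limma adjusted p = 0.0163) and 0.14 without control 1. In both genes all 4 SB-treated libraries were above the controls.

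Of 13 genes for fusion of the autophagosome with the lysosome, 4 rose and 4 fell. The highest of them was RAB7A, a small GTPase of late endosomes, which averaged 92.7 ± 3.22 RPKM in controls and 71.1 ± 1.46 RPKM after SB (SD, n = 4), a log2 fold change of -0.38 (limma adjusted p = 1.66e-05), -0.35 without control 1. The SNARE genes YKT6 and VAMP8 and the HOPS subunit VPS33A also fell, at -0.23 (limma adjusted p = 0.00118), -0.24 (limma adjusted p = 0.0141) and -0.22 (limma adjusted p = 4.77e-04). Without control 1 they were at -0.27, -0.21 and -0.21, and VAMP8, whose groups overlapped, was not called without TMM factors, where YKT6 was at -0.13 and VPS33A at -0.12. The HOPS subunits VPS39 and VPS41 rose, at 0.16 (limma adjusted p = 0.0364) and 0.18 (limma adjusted p = 5.70e-04), as did the adaptor PLEKHM1 at 0.22 (limma adjusted p = 0.00400) and TECPR1 at 0.22 (limma adjusted p = 0.0139). Without control 1 these were at 0.10, 0.18, 0.18 and 0.15, and the call for VPS39 was lost without control 3 or any SB-treated library. Without TMM factors VPS39 was at 0.26 and VPS41 at 0.28. Subunits of the HOPS tethering complex thus went in both directions.

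Among 11 transcription factors and their regulators, 4 rose and 1 fell. TFEB, a factor that drives lysosomal and autophagy genes, averaged 1.89 ± 0.193 RPKM in controls and 2.41 ± 0.141 RPKM after SB (SD, n = 4), a log2 fold change of 0.24 (limma adjusted p = 0.00335) and 0.19 without control 1. TFE3, its relative, averaged 18.7 ± 0.659 RPKM in controls and 21.6 ± 0.595 RPKM after SB (SD, n = 4), a log2 fold change of 0.20 (limma adjusted p = 0.00107) and 0.19 without control 1. In both genes all 4 SB-treated libraries were above the controls. FNIP1 and FNIP2, partners of the folliculin protein that regulates these factors, rose by log2 fold changes of 0.27 (limma adjusted p = 0.00223) and 0.40 (limma adjusted p = 2.48e-05), and 0.33 and 0.43 without control 1. FOXO1 fell, at -0.26 (limma adjusted p = 1.08e-04), -0.28 without control 1 and -0.17 without TMM factors. FOXO3 averaged 10.2 ± 0.438 RPKM in controls and 9.60 ± 0.267 RPKM after SB (SD, n = 4), with a log2 fold change of -0.08 (95% confidence interval -0.16 to 0.01, limma adjusted p = 0.113) and overlapping groups. Without control 1 FOXO3 was at -0.10 and called lower, and without TMM factors it turned to 0.02. Among 3 inhibitors of BECN1, BCL2 rose from a low level, with means of 1.79 ± 0.181 RPKM in controls and 2.56 ± 0.0594 RPKM after SB (SD, n = 4) and a log2 fold change of 0.35 (limma adjusted p = 1.58e-04), 0.37 without control 1. BCL2L1 and MCL1 were not called, with log2 fold changes of -0.09 and 0.02. BCL2L1 was called lower without control 1, at -0.14. MCL1 was at 0.06 and not called without control 1, and was called higher without TMM factors, at 0.13.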

How the data were processed

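RNA-seq values of 8 libraries given as HepG2 were used, 4 control and 4 SB-treated (10 mM, 24 hours). Per the submitters' processing notes, reads were aligned to hg38 with TopHat2 2.1.0, counted per gene with featureCounts 1.5.0 and analysed with edgeR 3.16.5. The authors deposited RPKM values, computed with TMM-scaled library sizes after their own filter on low counts. The table also holds the authors' log fold changes, average abundances, p-values and FDR, which were not used.

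Here limma 3.58.1 in R 4.3.3 was fitted to log2(RPKM + 1) over all 14526 genes, SB-treated minus control, with Benjamini-Hochberg adjustment over all of them. Whole reads were recovered from the RPKM steps for 100% of genes (tolerance 0.02 reads), giving 36990091 to 44878446 reads per library. TMM factors were inferred from the same steps, since library sizes before the filter of the authors are not given in the sources used here. Members and lists were chosen with earlier results of these data known. Values in every library were given for members called at an absolute log2 fold change of 0.25 or more and for the most abundant member of each role. Related genes to name were taken from those called at 0.5 or more, at most 5 in each direction, with MTOR, TFEB, TFE3, FOXO3, PRKAA1, RPTOR, RUBCN and BCL2 named in any case. Other related genes were named because a count was 5 or fewer, or, for MAP1LC3C, as a gene of the ATG8 family, after their values were seen. Exon overlaps come from GENCODE release 44 and promoters from RefSeq. Alternatives were another added constant, a filter on mean RPKM, other scalings, an intensity trend, voom on recovered reads, a replicate block and leaving out each library.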

Additional observations from a re-analysis of the deposited data

Results flagged for a closer look

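In 104 groups of 4 values (37 members and 15 related genes in controls and in SB-treated libraries), the gap between an extreme library and its nearest neighbour was compared with the range of its group. In 15 groups the library stood further out than Dixon's 95% limit, where chance gives about 1 in 20, or 5.20. Control 1 was that library in 12 of them.

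Control 1 was the lowest control for ULK3 (gap over range 0.910), ATG9A (0.882), ATG2A (0.898), ATG4B (0.853), GABARAP (0.918) and SQSTM1 (0.950) among the members. It was also lowest for the related genes WDR45 (0.968), TFEB (0.842) and RUBCN (0.916). It was the highest control for ATG3 (0.949), NBR1 (0.830) and TAX1BP1 (0.884). In GABARAP it stood at 107 RPKM, below all 4 SB-treated libraries, and in ATG3 at 29.6 RPKM.

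Among SB-treated libraries, SB-treated 2 was lowest for VMP1 (0.878, at 24.9 RPKM) and for MAP1LC3B (0.853, at 29.3 RPKM), and SB-treated 1 was highest for WDFY3 (0.880, at 9.07 RPKM). The reason why these libraries stood apart was not tested.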

How the results depend on the processing

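Over 16 alternatives, 17 of the 29 called members were called in the same direction every time, 12 higher and 5 lower, and no called member was called in the opposite direction. The fit without TMM factors differed most: 5 members were lower instead of 16, and the median log2 fold change of the members was 0.005. That setting also turned the sign of PIK3C3 (0.005), ATG14 (0.077), OPTN (0.045), FOXO3 (0.019) and RPTOR (0.063), none of them called in either fit. The cause was not tested. Over the libraries left out in turn, the members' median ranged from -0.108 to -0.056, the members higher from 12 to 14 and the members lower from 12 to 17. Over the whole table, genes called higher ranged from 4311 to 5459 and genes called lower from 4285 to 5511. ATG14 log2 fold change ranged from -0.043 (without control replicate 3) to 0.031 (without control replicate 1). RPTOR log2 fold change ranged from -0.139 (without control replicate 1, where it was called) to 0.014 (without control replicate 2), and was 0.010 without control replicate 4. The filter on mean RPKM, median-of-ratios scaling and the intensity trend left the members at 13 higher and 16 lower.

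Same-numbered control and SB-treated libraries deviated from their group means with correlations across genes of 0.380, 0.327, 0.173 and -0.160. Their mean was 0.180, beside -0.0541 for the other pairs of a control and an SB-treated library. The main fit did not use the numbers as pairs, and whether they mark pairs was not tested. With a replicate block 15 members were higher and 18 lower, with 4885 genes higher and 4894 lower over the table. The block with voom on recovered reads, chosen after seeing the data, also gave 15 and 18, with 4987 and 4977 over the table.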

Other observations

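The subunits of AMPK, an energy sensor that promotes initiation, went in different directions, and they are described here because of their values. The catalytic subunit gene PRKAA2 averaged 13.0 RPKM in controls and 17.4 RPKM after SB, a log2 fold change of 0.39 (limma adjusted p = 1.90e-04) and 0.44 without control 1. The regulatory subunit genes PRKAB1, PRKAB2 and PRKAG1 fell, at -0.23 (limma adjusted p = 2.33e-04), -0.28 (limma adjusted p = 8.20e-04) and -0.23 (limma adjusted p = 4.77e-04), and without control 1 at -0.24, -0.23 and -0.20. Without TMM factors these were at -0.13, -0.18 and -0.13. A further regulatory subunit gene, PRKAG2, averaged 5.72 RPKM in controls and 6.28 RPKM after SB and was not called, with overlapping groups and a log2 fold change of 0.12 (limma adjusted p = 0.0882). It was called higher without control 1, at 0.17, and without TMM factors, at 0.21. The sestrins, which report amino acid shortage to MTORC1, were split as well. SESN2, at 66.5 RPKM in controls and 85.3 RPKM after SB, and SESN3, at 9.26 RPKM in controls and 10.2 RPKM after SB, rose, while SESN1, at 8.94 RPKM in controls and 7.33 RPKM after SB, fell. Their log2 fold changes were 0.36, 0.13 and -0.25, and without control 1 0.30, 0.17 and -0.18. SESN1 was not called without TMM factors, where SESN3 was at 0.23, and the call for SESN3 was lost when any library other than control 1 or SB-treated 2 was left out. MLST8, a core subunit of the MTOR complexes, fell with a log2 fold change of -0.38 (limma adjusted p = 3.32e-04) and -0.43 without control 1.

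A pair of ratios set members that moved in opposite directions side by side. They were chosen after the values were seen and carry no test. ATG4B over ATG3 in RPKM was 0.483, 0.741, 0.752 and 0.719 in controls 1 to 4 and 1.35, 1.53, 1.48 and 1.38 in SB-treated libraries 1 to 4. ULK1 over RB1CC1 was 0.134, 0.190, 0.222 and 0.190 in the controls and 0.313, 0.387, 0.389 and 0.368 after SB. In both ratios control 1 was the lowest library and every SB-treated library was above every control.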
